A study of Mus musculus with 6 samples.

Results

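The genes described here are 35 pan-neuronal and synaptic genes, taken by symbol from the rows of the deposited table. Their list was chosen with earlier results of these data known. Counts and shares of its members are therefore descriptions and no independent test. All 35 were among the 49492 gene symbols of the table, and 34 had counts high enough to be tested among 19284 genes. Poly(A) RNA was sequenced from palatal shelves, the paired outgrowths that become the roof of the mouth, dissected at E14.5 from embryos of C57BL mice. Controls, 3 libraries, carried floxed Prmt1 alleles (PRMT1 fl/fl) and no Cre. The deletion group, also 3 libraries, carried the same floxed alleles together with Wnt1-Cre, so the enzyme gene Prmt1, an arginine methyltransferase, was targeted in cells of the Wnt1 lineage, mainly neural crest. No library carried Cre without floxed alleles, so an effect of Cre cannot be told apart from that of the deletion. The labels do not state whether each library came from its own embryo, and p-values therefore measure the spread between these libraries only.

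Neurons of every kind share a set of genes for their cytoskeleton, their RNA-binding proteins and the machinery that releases transmitter from vesicles, and they switch these genes on as they leave the cell cycle. In the palate, sensory axons arrive in the maxillary branch of the trigeminal nerve. Their cell bodies sit in the trigeminal ganglion, which is built from neural crest and placode cells, while the glia along the nerve come from neural crest. RNA of a dissected shelf can thus hold transcripts of axons and of any neurons within the piece. In bulk RNA, more cells of a type and more RNA per cell cannot be told apart.

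Libraries are named by the number in their column name, and values are given in the order 212, 213 and 220 for control and 208, 211 and 221 for deletion. Totals ran from 44919889 to 50022829 estimated counts. Levels are in CPM, counts relative to the library's total, scaled by TMM factors that even out library composition. Prmt1 was at 246 to 258 CPM in controls and 201 to 217 CPM in deletion libraries (edgeR adjusted p = 0.0113). The mesenchymal gene Prrx1 was at 751 to 890 CPM over all libraries. Controls 212 and 213 were male (Xist at 15.5 and 16.0 CPM, 4 Y-linked genes summing to 247 and 254 CPM), and control 220 and the 3 deletion libraries were female (Xist at 3380 to 4490 CPM). Hbb-y, an embryonic beta-globin, relative to the adult beta-globins was also lower in 212 and 213 (ratios of 0.0946 and 0.0779) than in the other 4 libraries (0.191 to 0.320). Calls are therefore given beside a fit with embryo sex as a covariate. In that fit the group difference is in effect the 3 deletion libraries against control 220.

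Neuronal genes were mostly higher in the deletion shelves. Of the 34 tested, 6 rose and 0 fell (edgeR quasi-likelihood test, adjusted p under 0.05). The risers were the presynaptic genes Syp, Stx1a and Cplx1, the axonal kinesin Kif5a, the heavy neurofilament gene Nefh and the RNA-binding protein gene Elavl2. Cplx1 entered the test only through its deletion libraries and is included in the counts below. The 6 are 17.6% of the members tested, where 3.65% of all tested genes were called higher and 3.37% lower. Fitted log2 fold changes were above 0 for 31 members and below 0 for 3, with a median of 0.70 over the members and of 0.00 over all genes. Every deletion library lay above every control in 19 members, or 55.9%, against 14.1% of all tested genes. By DESeq2's Wald test and by limma voom 0 members fell too, and 0 had a lower value at an unadjusted p under 0.05 in edgeR (11.3% of all genes), where 22 had a higher one (11.2% of all genes). In no member did every deletion library lie below every control, a pattern that 13.5% of all tested genes showed. A fitted fold of 2 or more was seen in 12 members, with 2.45% of all genes at such a fold.

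These calls changed with the covariate in the fit and with the libraries used. Controls 212 and 213 differed from the other libraries in both sex and globin ratio, so these cannot be told apart. With sex as a covariate 0 members were called in either direction by edgeR (0.337% of all genes were called higher). In that fit 8 members had an unadjusted p under 0.05 with a fold change above 0 (the 6 risers, Nefl and Prph), against 7.15% of all genes, and 2 with one below 0 (Chgb and Syn1), against 7.16%. Its median log2 fold change over members was 0.51, with 29 of 34 values above 0. Without controls 212 and 213 the count was also 0, at a background of 0.215%, and with the globin ratio as a covariate it was 0, at a background of 0.928%. The count of risers was 3 without control 212 (2.47% of all genes), 1 without control 213 (1.01%), 3 without deletion 208 (1.52%) and 14 without deletion 221 (5.28%). DESeq2's Wald test called 19 members higher (5.64% of all genes), and edgeR without robust estimation called 12 (3.42%).

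**Figure D1:**
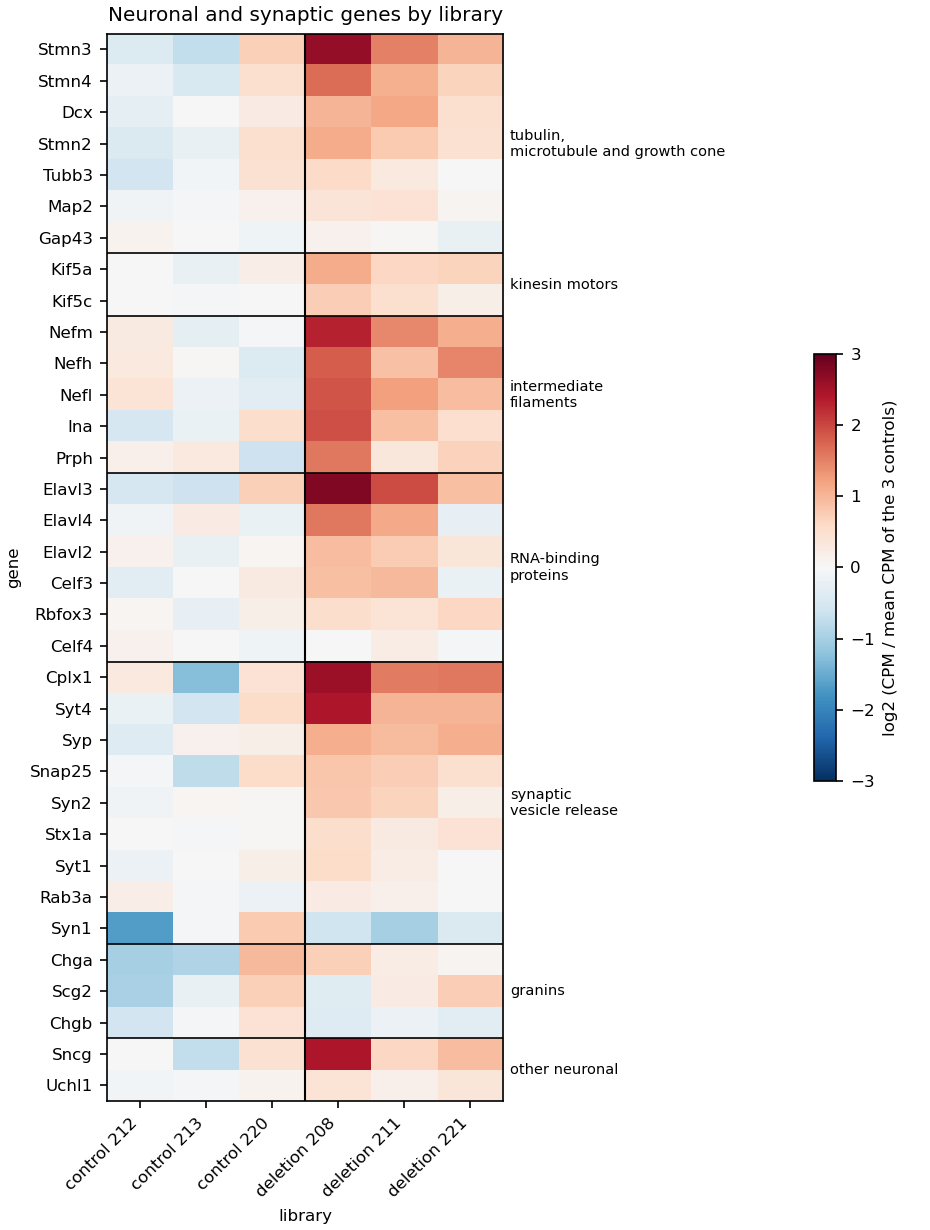
Each cell is 1 gene in 1 library, coloured by log2 of its CPM over the mean CPM of the 3 controls; columns are libraries, rows are the 34 tested genes by role. Deletion 208 holds the deepest red, with a median of 0.92, followed by 211 at 0.65 and 221 at 0.47.

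The deletion libraries were not alike. Deletion 208 had the highest value of all 6 libraries in 25 of the 34 tested members, 211 in 4, 221 in 2 and control 220 in 3. Relative to the mean of the controls, the median member stood at 1.89-fold in deletion 208, 1.57-fold in 211 and 1.38-fold in 221. Among controls, 220 was the highest in 23 members, and its median member stood at 1.14-fold, against 0.931-fold in 212 and 0.958-fold in 213. The sum over the 35 genes was 318, 315 and 350 CPM for controls, and 589, 478 and 400 CPM for deletion libraries. Groups thus did not overlap in the sum, and the smallest gap was between control 220 and deletion 221. All 3 deletion libraries exceeded control 220, the control of the same sex, in 21 of 34 members, a pattern seen in 29.9% of all tested genes.

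The synaptic vesicle release genes gave 3 of the 6 risers. Syp (chromosome X, 7638471 to 7653256, mm10, plus strand) encodes synaptophysin, an abundant membrane protein of synaptic vesicles. It was at 1.81, 2.61 and 2.68 CPM in controls and 5.07, 4.58 and 5.02 CPM in deletion libraries, so the groups were far apart and the deletion libraries were close to each other. Its log2 fold change was 1.05 ± 0.19 (SE; 2.07-fold, edgeR adjusted p = 0.00885), the lowest p of the members. Syp was also the only riser that passed with each of the 6 libraries left out in turn, and it stood at 0.86 with sex as a covariate (edgeR adjusted p = 0.187).

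Stx1a (chromosome 5, 135023482 to 135051100, plus strand) encodes syntaxin-1A, a membrane SNARE that pulls the vesicle to the plasma membrane. Its level was 17.7, 17.1 and 18.2 CPM in controls and 25.3, 21.3 and 23.8 CPM in deletion libraries. All 3 deletion values were above the narrow range of the controls, with a log2 fold change at 0.41 ± 0.08 (SE; edgeR adjusted p = 0.0150, and 0.216 with sex, where the change was 0.37). Stx1a was not called without control 213 or without deletion 208. Cplx1 (chromosome 5, 108518554 to 108550024, minus strand) encodes complexin-1, which binds the assembled SNARE complex and times fusion. It had few counts, 21, 7 and 21 in controls and 101, 46 and 46 in deletion libraries, or 0.417, 0.141 and 0.462 CPM against 2.02, 1.01 and 1.03 CPM. The log2 fold change was 1.99 ± 0.46 (SE; edgeR adjusted p = 0.0267). Only 2 of its 3 controls reached the filter's minimum of 0.210 CPM, the sole member that entered the test through its deletion libraries. In the fit with sex Cplx1 stood at 1.55 (edgeR adjusted p = 0.337), and it was not called without control 212, control 213 or deletion 208.

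The other release genes did not pass. Syt4, a synaptotagmin that does not act as a fast calcium sensor, was at 0.497, 0.384 and 0.836 CPM in controls and 3.06, 1.16 and 1.16 CPM in deletion libraries (log2 fold change 1.66, edgeR adjusted p = 0.0554). Syn2, a synapsin that tethers vesicles to each other, was at 1.55, 1.76 and 1.72 CPM and 2.92, 2.67 and 1.90 CPM (0.58, adjusted p = 0.157). Groups did not overlap in either gene, though deletion 221 came close to the controls in Syn2. Snap25, the SNARE partner of syntaxin-1A, overlapped between groups, at 0.869 to 2.16 CPM in controls and 2.05 to 2.62 CPM in deletion libraries (log2 fold change 0.69, 95% interval 0.03 to 1.36). Syt1, the calcium sensor of fast release, and Rab3a, the small GTPase of vesicles, had log2 fold changes of 0.27 and 0.13, with 95% intervals of -0.12 to 0.66 and -0.14 to 0.41. Syn1, the other synapsin among the members, had the lowest fold change of the members. A further synapsin gene outside the list of 35, Syn3, was at 2.31 ± 0.222 CPM in controls and 2.04 ± 0.417 CPM with the deletion (SD, n = 3 each; log2 fold change -0.18, edgeR adjusted p = 0.700). Syn1 was at 1.27, 3.92 and 6.95 CPM in controls and 2.68, 2.02 and 3.01 CPM in deletion libraries (log2 fold change -0.65, 95% interval -2.12 to 0.82). Its controls spread more widely than those of any gene just named, and all deletion values lay inside their range.

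**Figure D2:**
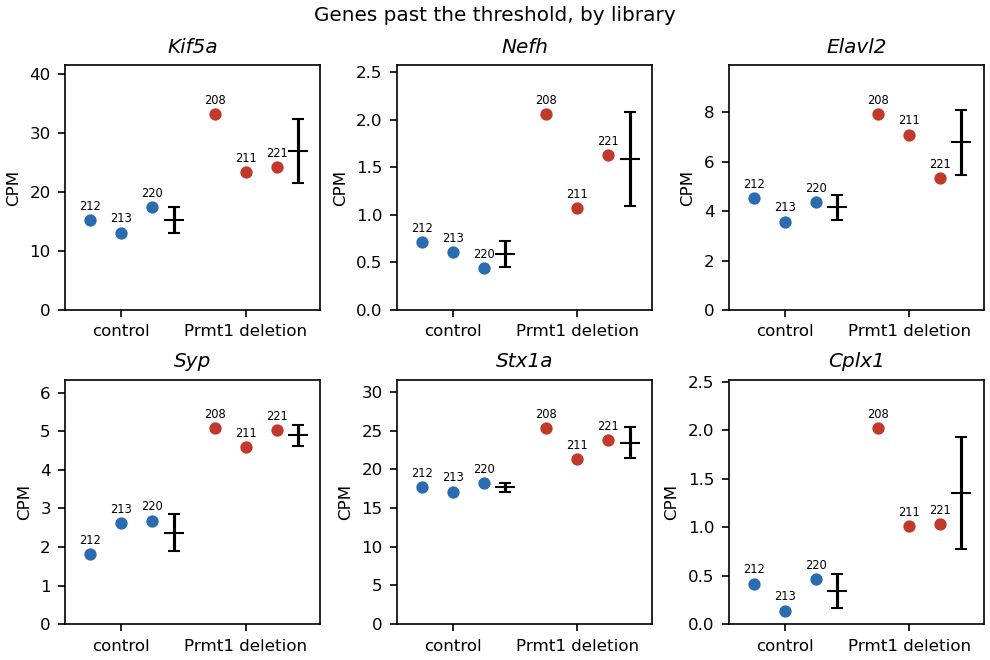
CPM (TMM-scaled, axes from 0) of the 6 genes past the threshold. Each numbered point is a library (blue, control; red, deletion) and the bars show the mean with the SD over the 3; every red point lies above every blue point, and 208 is the highest in all 6 panels.

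Both kinesin genes were higher in every deletion library. Kif5a (chromosome 10, 127225696 to 127263348, minus strand) encodes a neuron-specific heavy chain of kinesin-1, the motor that carries cargo away from the cell body. It was at 15.2, 13.1 and 17.4 CPM in controls and 33.2, 23.4 and 24.2 CPM in deletion libraries (log2 fold change 0.82 ± 0.15, SE; edgeR adjusted p = 0.0150). The change was 0.63 with sex as a covariate (edgeR adjusted p = 0.226). Kif5a was not called without control 212 or without control 213. Kif5c, a second neuronal heavy chain of the same motor, was at 37.0, 36.0 and 36.9 CPM and 61.2, 51.5 and 41.2 CPM. Its controls were nearly equal, and its fold change missed the threshold (0.49, edgeR adjusted p = 0.0544).

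The intermediate filament genes had the largest median change of the groups with 3 or more tested genes, a log2 fold change of 1.40 over 5. They build the neurofilaments that fill and widen axons. Nefh (chromosome 11, 4938754 to 4948064, minus strand), the heavy chain, rose from 0.715, 0.606 and 0.440 CPM to 2.06, 1.07 and 1.63 CPM (log2 fold change 1.43 ± 0.33, SE; edgeR adjusted p = 0.0275). Its value with sex as a covariate was 1.85 (edgeR adjusted p = 0.147), and it was not called without control 213, control 220 or deletion 208. Nefm, the medium chain, was at 15.5, 10.5 and 12.5 CPM in controls and 63.9, 35 and 27.5 CPM in deletion libraries (1.71, edgeR adjusted p = 0.0877). Nefl, the light chain, was at 17.6, 11.8 and 10.5 CPM and 48.9, 31.4 and 25.1 CPM (1.40, edgeR adjusted p = 0.0921). In both, each deletion library was above each control, and deletion 208 was well above the other 2. Nefl and Nefm lie side by side on chromosome 14, and their annotated exons share 1108 bases on opposite strands, so without a known strand setting part of their reads cannot be told apart.

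Peripherin, encoded by Prph, is the filament of peripheral neurons. Its values were 6.93, 7.68 and 4.05 CPM in controls and 18.7, 7.89 and 10 CPM in deletion libraries, without overlap but with 211 just above control 213 (log2 fold change 0.97, edgeR adjusted p = 0.245). Ina encodes alpha-internexin, a filament protein of young neurons. It was at 1.65, 2.04 and 3.37 CPM and 9.05, 4.38 and 3.35 CPM, so control 220 and deletion 221 were level (1.26, edgeR adjusted p = 0.151). In the fit with sex, the fold changes of Prph, Nefl and Nefh were larger (1.59, 1.75 and 1.85), that of Nefm was nearly the same (1.76) and that of Ina was smaller (0.74).

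**Figure D3:**
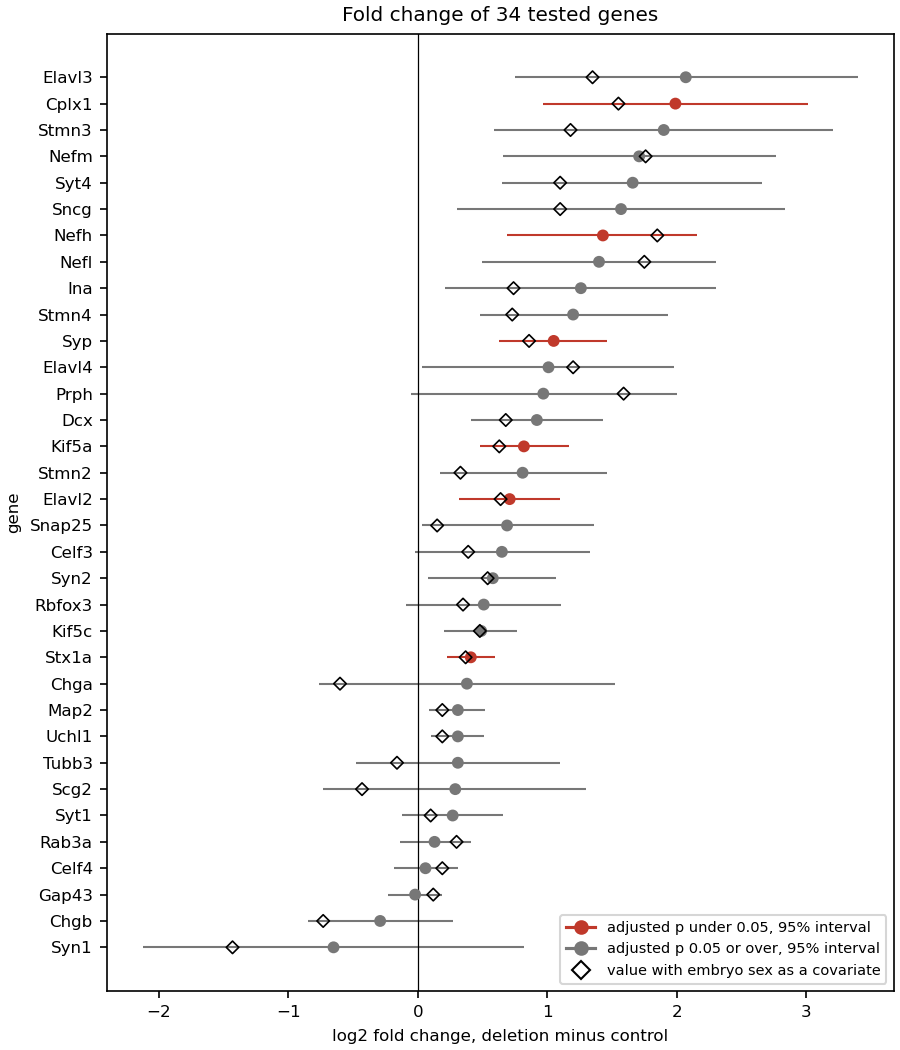
Log2 fold change, deletion minus control, of the 34 tested genes. Filled points and lines are the fit without covariates with its 95% interval, red where adjusted p was under 0.05, and open diamonds are the values with embryo sex as a covariate; Elavl3 is at the top (2.07) and Syn1 at the bottom (-0.65).

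Among microtubule and growth cone genes, 0 of 7 passed, with a median log2 fold change of 0.81. Stathmins bind free tubulin and regulate microtubule turnover. Stmn3 was at 0.854, 0.687 and 1.87 CPM in controls and 7.09, 3.24 and 2.32 CPM in deletion libraries (log2 fold change 1.90, edgeR adjusted p = 0.0969), and Stmn4 at 0.854, 0.707 and 1.34 CPM and 3.08, 2.04 and 1.54 CPM (1.20, adjusted p = 0.0520). In both, control 220 lay nearest to deletion 221 and the groups did not overlap. Stmn2, the stathmin of growing axons, was at 6.18, 7.13 and 11.6 CPM and 18, 14.3 and 11.5 CPM, with 220 level with 221 (0.81, edgeR adjusted p = 0.136). Dcx encodes doublecortin, which binds microtubules in young neurons. It stood at 17.8, 21.2 and 25.4 CPM in controls and 43.5, 48.0 and 30.0 CPM in deletion libraries, without overlap (0.92, edgeR adjusted p = 0.0566).

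The other 3 genes of this group overlapped between groups. Map2, the dendritic microtubule protein, was at 47.9 to 56.0 CPM and 54.4 to 69.7 CPM (log2 fold change 0.31, 95% interval 0.09 to 0.52, edgeR adjusted p = 0.0878). Tubb3, the neuronal beta-tubulin, was at 13.4, 19.0 and 27.7 CPM in controls and 29.8, 24.6 and 20 CPM in deletion libraries. Control 220 exceeded deletion 211 and 221 there, and the log2 fold change of 0.31 (95% interval -0.48 to 1.10) became -0.16 with sex as a covariate. Gap43, a growth cone protein that Schwann cells make too, was at 54.3, 50.3 and 45.5 CPM and 54.3, 50.9 and 42.8 CPM. Its 2 groups covered nearly the same range, at a log2 fold change of -0.02 with a 95% interval of -0.23 to 0.19.

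Neuronal RNA-binding proteins steer splicing, stability and translation of neuronal messages, and 1 of 6 rose. Elavl2 (chromosome 4, 91250763 to 91400785, minus strand), of the Hu family that stabilises AU-rich messages, was at 4.53, 3.58 and 4.36 CPM in controls and 7.93, 7.10 and 5.34 CPM in deletion libraries (log2 fold change 0.71 ± 0.18, SE; edgeR adjusted p = 0.0356). It stood at 0.64 with sex as a covariate (edgeR adjusted p = 0.310) and passed in the leave-one-out fits only without deletion 221. Its relative Elavl3 had the largest fitted fold of the members and did not pass, at 0.576, 0.525 and 1.34 CPM and 5.55, 3.15 and 1.52 CPM (2.07, 95% interval 0.75 to 3.40, edgeR adjusted p = 0.0763). Deletion 221 was only slightly above control 220 there. Elavl4 overlapped, with 6.21 and 4.60 CPM in deletion 208 and 211 but 1.76 CPM in 221, below the lowest control at 1.83 CPM. Celf3, a splicing regulator of neurons, also overlapped, with 221 inside the control range, at 1.57 to 2.35 CPM in controls and 3.66, 3.88 and 1.70 CPM in deletion libraries.

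Rbfox3, which encodes the mature neuron antigen NeuN, was among the lowest members, at 0.894, 0.728 and 0.968 CPM in controls and 1.24, 1.14 and 1.32 CPM in deletion libraries. The groups did not overlap, and the fold change did not pass (log2 0.51, 95% interval -0.09 to 1.11, edgeR adjusted p = 0.301). Celf4 did not differ beyond its spread, at 11.4 to 13.6 CPM and 12.0 to 14.6 CPM (0.06, 95% interval -0.18 to 0.31).

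Granins fill the dense-core granules that store peptides and amines, and 0 of 3 passed. Chga was at 0.358, 0.384 and 1.41 CPM in controls and 1.18, 0.833 and 0.759 CPM in deletion libraries, Chgb at 1.77, 2.55 and 3.54 CPM and 2.00, 2.32 and 2.08 CPM, and Scg2 at 1.05, 1.78 and 3.39 CPM and 1.62, 2.48 and 3.48 CPM. In all 3 genes control 220 was the highest control and the deletion libraries lay within or close to the control range. Their log2 fold changes were 0.38, -0.29 and 0.29, and with sex as a covariate -0.60, -0.73 and -0.43, so Chga and Scg2 turned direction. The 5 members with a value below 0 in the fit with sex were the 3 granins, Syn1 and Tubb3.

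Of the remaining 3 members, Uchl1, an abundant neuronal deubiquitinating enzyme, was at 15.1, 15.6 and 17.3 CPM in controls and 21.1, 17.7 and 20.5 CPM in deletion libraries (log2 fold change 0.31, edgeR adjusted p = 0.0809). Sncg encodes gamma-synuclein, which is abundant in peripheral sensory neurons. It stood at 0.954, 0.566 and 1.30 CPM and 5.09, 1.45 and 1.79 CPM, with deletion 208 far above the rest (1.57, edgeR adjusted p = 0.140). Neither overlapped between groups. The proneural factor Neurod1 had 0 counts in every control and 5, 0 and 1 counts in the deletion libraries, and was not tested.

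**Figure D4:**
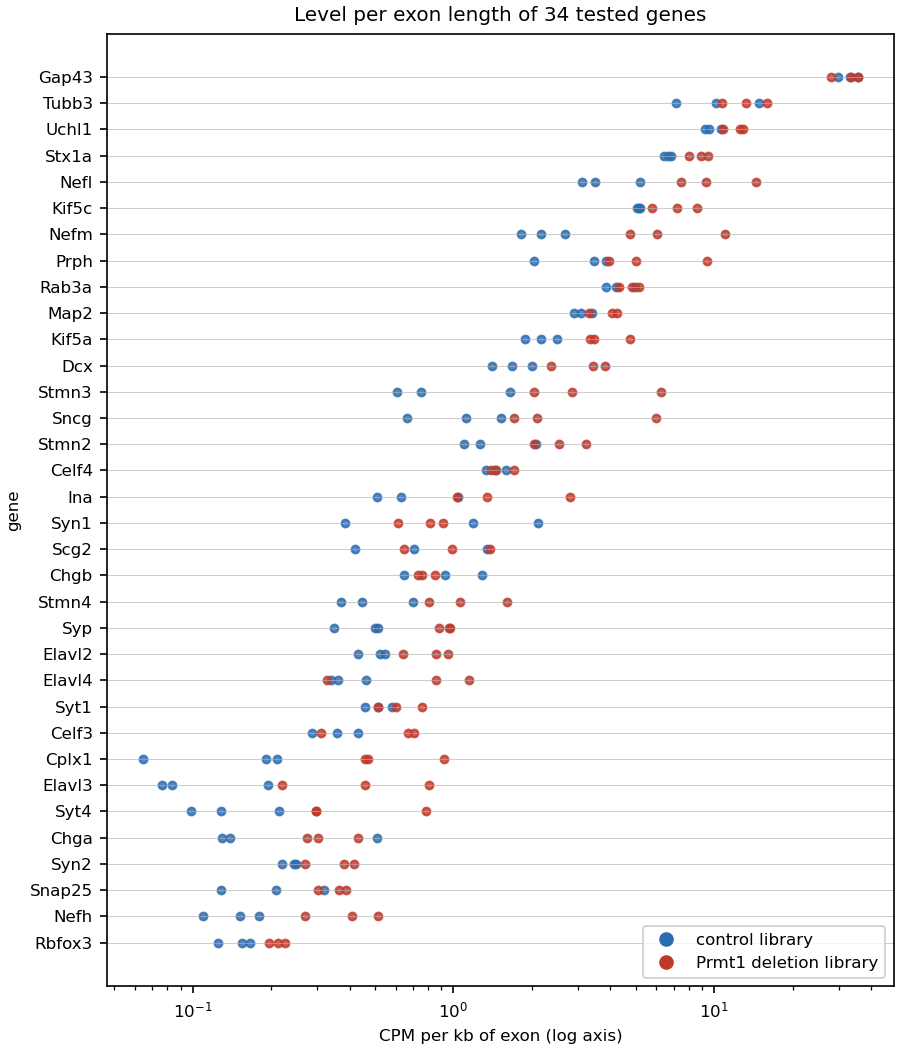
CPM per kb of annotated exon (log axis) for the 34 tested genes in each library (blue, control; red, deletion), ordered by the mean of 6 libraries. Gap43 stands alone at 28.1 to 35.6, and Rbfox3 is the lowest at 0.125 to 0.226.

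Levels of different genes were compared per kb of exon, as CPM divided by the union of exons of each gene. On that scale Gap43 was the highest, at 35.6, 33.1 and 29.9 CPM per kb in controls and 35.6, 33.4 and 28.1 in deletion libraries, above every value of the next member. Tubb3 (7.16 to 15.9 CPM per kb), Uchl1 (9.25 to 12.9), Stx1a (6.41 to 9.50) and Nefl (3.11 upwards) followed, and each of these ranges overlapped that of its neighbour. Nefl was at 5.21, 3.50 and 3.11 CPM per kb in controls, below every Stx1a value, and at 9.29 and 7.44 in deletion 211 and 221, with 208 higher than both. At the low end, Rbfox3, Nefh, Snap25 and Syn2 had means of 0.180 to 0.297 CPM per kb, with overlapping ranges.

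Repression of neuronal genes outside neurons is a known task of the zinc finger protein REST, which binds a DNA element called RE1. Rest itself was at 143 to 171 CPM in all 6 libraries and did not differ beyond its spread (log2 fold change 0.03, 95% interval -0.12 to 0.19). To show what these genes carry near their starts, the 14-letter RE1 core AGCACCNNGGACAG was searched on both strands in windows from 250 bases before to 50 bases after each start (RefSeq, GRCm38.p6). Windows were at hand for 25 of the 35 members, 43 windows in all, and none for Celf4, Gap43, Kif5a, Nefh, Nefl, Nefm, Snap25, Stmn2, Stmn4 or Syt4. With at most 1 of the 12 fixed letters different, 1 member window matched, against 0.353% of all 32851 windows. With at most 2 different, 5 member windows of 5 genes did, or 11.6%, against 4.46% of all windows. The 5 matches are shown 5′ to 3′ on the strand of the gene, with the 14 matched letters in capitals.

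Syn1: tcggattcAGCACCGCGGTCAGagccttcg
Elavl2: cagcttgcCTGTTCCTGGGGCTctcggact
Prph: agggtgccAGCAACCAGGAGAGggaagggg
Rbfox3: gcaggagaAGCACAGAGGATAGcaggaatc
Sncg: gaggcagtAGCAGCAGAGACAGcggctgcg

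The Syn1 match (chrX:20921126-20921155, minus strand) differs from the core at 1 letter and starts at position -229, counted from the gene's start as 0. Those of Elavl2 (chr4:91400059-91400088, minus strand, matched on the strand opposite to the gene), Prph (chr15:99054995-99055024, plus strand), Rbfox3 (chr11:118761000-118761029, minus strand) and Sncg (chr14:34374634-34374663, minus strand) differ at 2 letters. Of these 5 genes only Elavl2 passed the threshold, with a log2 fold change of 0.71. Prph (0.97), Rbfox3 (0.51) and Sncg (1.57) did not pass, though in them too every deletion library lay above every control. Syn1, with the closest match, had a fold change below 0 (-0.65), and its groups overlapped. A match of letters is a description, and binding was not measured.

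Further neuronal genes that are not in the list of 35, also chosen with earlier results of these data known, were counted in the same way. Of 39 tested, 11 rose (28.2%) and 1 fell, with a median log2 fold change of 0.29. Of all tested genes, 3.65% were called higher and 3.37% lower. Among those that rose, Dner, a Notch ligand of neurons, went from 2.43 ± 0.779 to 7.02 ± 0.385 CPM (SD, n = 3 each; edgeR adjusted p = 0.00232). Sv2a, a synaptic vesicle glycoprotein, went from 17.9 ± 1.67 to 26.5 ± 1.33 CPM (edgeR adjusted p = 0.00428). Rtn1, a reticulon gene of the endoplasmic reticulum, went from 3.72 ± 0.991 to 8.47 ± 2.20 CPM (edgeR adjusted p = 0.0124). The gene that fell, named after its values were seen, was Pclo, which encodes the presynaptic scaffold piccolo (9.69 ± 1.47 to 6.66 ± 0.353 CPM, edgeR adjusted p = 0.0356). With sex as a covariate 0 of the 39 were called by edgeR and the median was 0.20.

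Markers of the kinds of neuron and glia that could lie in a shelf moved in part with these genes. Of 17 sensory neuron genes tested, 3 rose (17.6%) and 1 fell, where 3.65% of all tested genes were called higher and 3.37% lower. Among them, Ntrk3, the neurotrophin-3 receptor, rose from 26.6 ± 0.820 to 39.8 ± 5.74 CPM and the sensory channel P2rx3 from 0.531 ± 0.183 to 2.51 ± 1.44 CPM, while Runx3 fell from 9.19 ± 1.55 to 5.46 ± 0.704 CPM (edgeR adjusted p = 0.00610, 0.0306 and 0.0160). Of 15 Schwann and glial genes, 3 rose and 0 fell, among them S100b (2.39 ± 0.0921 to 4.86 ± 0.588 CPM, edgeR adjusted p = 0.00568) and the neurotrophin receptor Ngfr (135 ± 10.6 to 162 ± 3.22 CPM, edgeR adjusted p = 0.0240). The summed level of the Schwann and glial list was 342 to 353 CPM in controls and 378 to 422 CPM in deletion libraries, with deletion 208 the highest, as for the members. In the fit with sex 0 sensory and 0 glial genes were called by edgeR, with medians of 0.46 and 0.36. Of 9 autonomic neuron genes 0 were called by edgeR, with 2 higher and 1 lower at an unadjusted p under 0.05 and 1 called each way by DESeq2. Nos1 (8.95 ± 0.797 to 6.66 ± 0.838 CPM) had the smallest p there (edgeR adjusted p = 0.0871). The autonomic list summed to 19.7 to 23.8 CPM in controls and 16.9 to 26.9 CPM in deletion libraries, which overlapped.

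The brain and olfactory lists held genes at very different levels. Their counts of calls stand beside 3.65% of all tested genes called higher and 3.37% lower. Of 12 central nervous system genes 6 were below the filter, at 0.159 CPM or less, with Neurod2 at 0 in every library, and Tbr1 and Gad1 reached at most 0.501 and 1.17 CPM. In that list Emx2 rose (1.85 ± 0.119 to 4.31 ± 0.195 CPM) and Six3 fell (4.18 ± 1.21 to 2.18 ± 0.387 CPM; edgeR adjusted p = 0.00261 and 0.0360, and 0.0663 and 0.343 with sex as a covariate), and its sum was 6.89 to 9.80 CPM in controls and 7.84 to 9.76 CPM in deletion libraries. Omp, the marker of mature olfactory neurons, was at 0.179 to 0.748 CPM with overlapping groups, and the olfactory genes Cnga2 and Gng13 reached at most 0.561 and 0.501 CPM. Other genes of the olfactory list were far higher, such as Adcy3 at 43.4 to 47.9 CPM, Gnal at 10.5 to 13.5 CPM and Gng8 at 6.49 to 9.42 CPM. Of 9 olfactory genes 1 rose, Ebf2, a transcription factor gene (15.7 ± 2.54 to 45.4 ± 0.260 CPM, edgeR adjusted p = 8.61e-05, and 0.00842 with sex). The list, Ebf2 included, summed to 83.5 to 88.9 CPM in controls and 114 to 117 CPM in deletion libraries. Its other 8 tested genes were not called, and its median log2 fold change was 0.11. Of 4 endocrine and Merkel cell genes tested 0 rose and 1 fell, Krt20 (log2 fold change -3.79, edgeR adjusted p = 0.0183). It was at 5.42, 5.96 and 1.39 CPM in controls (mean 4.26) and 0.36, 0.175 and 0.379 CPM in deletion libraries (mean 0.305). With sex as a covariate its change was smaller, at -2.17 (edgeR adjusted p = 0.0393).

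Skeletal muscle and epithelial genes differed in part between the groups, where 3.65% of all tested genes were called higher and 3.37% lower. The 8 muscle genes summed to 367 to 398 CPM in controls and 790, 1030 and 601 CPM in deletion libraries, and 4 rose and 0 fell. They were the myogenic factor genes Myog (log2 fold change 1.23) and Myod1 (1.13), the acetylcholine receptor gene Chrna1 (1.22) and the troponin gene Tnnt1 (1.02). In the fit with sex Myog, Myod1 and Chrna1 were still called higher (edgeR adjusted p = 0.0137, 0.0426 and 0.0452) and Tnnt1 was not (0.149). The 5 epithelial genes summed to 881 to 948 and 531 to 750 CPM, with 0 higher and 3 lower. Those were the keratin gene Krt14 (log2 fold change -0.83) and the adhesion genes Epcam (-0.42) and Cdh1 (-0.39). Krt5 (-0.44) and Trp63 (-0.09) were not called, and their groups overlapped. For Krt5, deletion 221 was at 239 CPM, within the 176 to 249 CPM of the controls. With sex in the fit Krt14 was still called lower (edgeR adjusted p = 0.0130), and Epcam and Cdh1 were not (0.128 and 0.191). Of 7 palate mesenchyme genes edgeR called 0, with 2 higher at an unadjusted p under 0.05 and 1 called higher by DESeq2. Pdgfra, a growth factor receptor gene (481 ± 5.97 to 534 ± 14.3 CPM), and Osr2, a transcription factor gene (86.4 ± 4.37 to 96.1 ± 8.85 CPM), had the smallest p there (edgeR adjusted p = 0.104 and 0.220). The part of these tissues and of nerve glia in the neuronal result was not tested. Exons of Syp share 875 bases with Gm14703 on the other strand, which was at 0.0446 to 0.384 CPM. Those of Syt4 share 566 with Gm26658, and those of Ina 456 with Nt5c2, which was at 37.9 to 41.6 CPM. Reads from these shared bases cannot be told apart without the strand setting. Exons of Elavl3 share 256 bases with Gm49318 on the same strand, so a strand setting would not separate those reads.

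**Figure D5:**
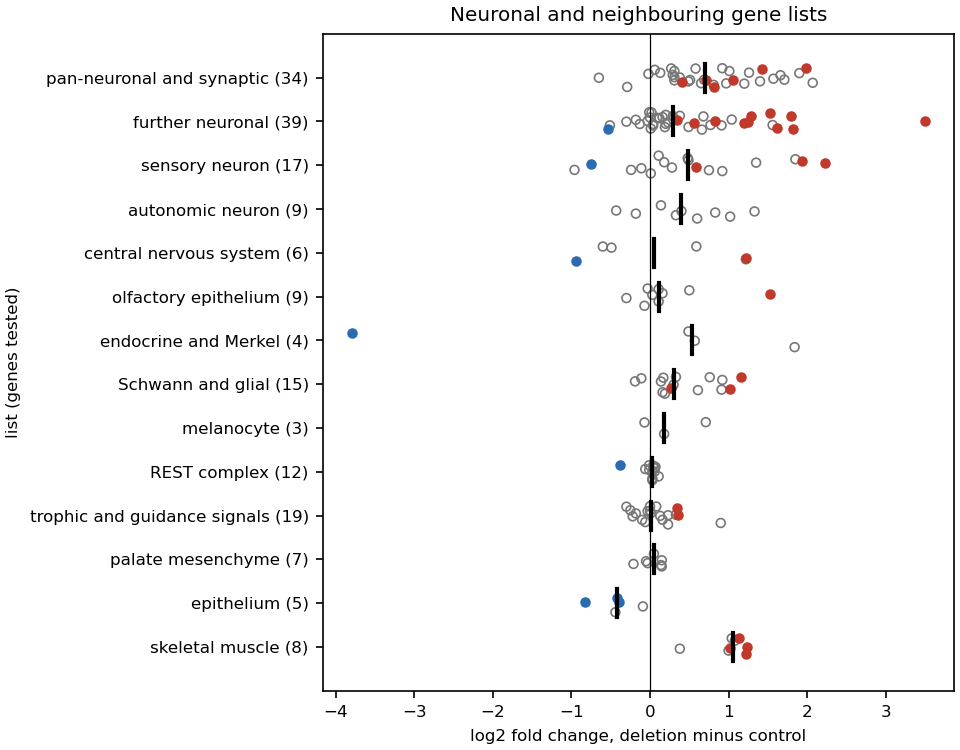
Log2 fold change, deletion minus control, of each tested gene in the 35-gene list and 13 other lists, with the number tested in brackets. Red points passed higher, blue passed lower, open points did not pass, and black bars are list medians; the neuronal list has its median at 0.70 and the mesenchyme list at 0.05.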

How the data were processed

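The authors deposited 1 table of estimated counts (expected counts) per gene symbol for 6 libraries of palatal shelves. Tools listed, per the submitters' processing notes, were STAR 2.4.1d, CASAVA 1.8.2 and Partek, with build mm10. The counting tool, annotation and strand setting were not given in the sources used here. Column names give the group but no replicate number of the labels. Counts were rounded, and genes kept by filterByExpr (minimum count 10, minimum total 15). Groups were compared over all kept genes by quasi-likelihood F tests in edgeR 4.0.16 (R 4.3.3, TMM, robust=TRUE), calling genes at a Benjamini-Hochberg adjusted p under 0.05. The script was tested on simulated data. An SE is the log2 fold change over the root of its F. Alternatives used DESeq2 1.42.0 and limma 3.58.1. Positions and exon lengths are from GENCODE M21 (GRCm38, which mm10 names), promoters from RefSeq. The members and the other 13 lists were chosen with earlier results of these data known. Values per library were due for members that passed or did not overlap and for the 5 highest per kb, and for other lists the called genes, at most 4 by smallest p, or, with none called, the 2 genes with the lowest p. Some genes that this rule names are not reported here. Values per library of other members, and Neurod2, Adcy3, Gnal, Gng8 and Syn3, were added after values were seen. Within each group, every pair of libraries differed by more than sampling noise.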

Additional observations from a re-analysis of the deposited data

How the results depend on the processing

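No paired analysis was possible because the column names carry no replicate number of the labels. The count of members called higher (6) was 19 with the DESeq2 Wald test, 12 with robust=FALSE, 0 with embryo sex as a covariate, 0 with the globin ratio as a covariate and 0 without controls 212 and 213, a setting chosen after seeing the data. With 1 library left out it ran from 1 to 14, where 1.01% to 5.28% of all genes were called higher. DESeq2 size factors gave 6 (3.65% of all genes), limma voom 7 (3.25%), no filter 9 (3.28%) and the CPM filter 5 (4.28%). The count called lower was 0 in all 15 alternatives. The 19 members above every control ran from 19 to 26 with 1 library left out (16.9% to 22.4% of all genes), and members below every control from 0 to 2 (16.6% to 21.2% of all genes). Without controls 212 and 213 they were 21 (30% of all genes) and 3 (29.4%). The median log2 fold change ran from 0.55 to 0.88 with 1 library left out. Of 508 values of single members under the alternatives, 418 kept direction and side of the threshold, 35 lost a call, 39 gained one and 16 turned direction. Those 16 were in 5 members. With sex as a covariate they were Tubb3 -0.16, Gap43 0.12, Scg2 -0.43 and Chga -0.60. Without controls 212 and 213 they were Tubb3 -0.16, Gap43 0.12, Scg2 -0.42 and Chga -0.60, and with the globin ratio Gap43 0.19, Scg2 -0.60 and Chga -0.35. The others came from leave-one-out fits: Gap43 0.04 and Scg2 -0.03 without control 212, Gap43 0.07 and Scg2 -0.01 without deletion 221, and Celf4 -0.03 without deletion 211. With 1 library left out, Gap43 ran from -0.09 to 0.07, Scg2 from -0.03 to 0.83 and Celf4 from -0.03 to 0.13. The cause was not tested. Low counts limit Cplx1, Nefh, Chga and Rbfox3 most.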

Other observations

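Of 19 tested genes for signals that guide or feed growing nerves, 2 rose and 0 fell, with a median log2 fold change of 0.01. Over all tested genes, 3.65% were called higher and 3.37% lower. The guidance molecule gene Rgma went from 67.7 ± 7.37 to 86.5 ± 2.48 CPM, and Edn3, which encodes the peptide endothelin-3, from 18.8 ± 0.742 to 24.1 ± 0.912 CPM (SD, n = 3 each; edgeR adjusted p = 0.0155 and 0.0162, and 0.0845 and 0.243 with sex as a covariate). In the list of REST and its partners, 1 of 12 fell and 0 rose. It was Rcor2, a corepressor that binds the demethylase LSD1, at 65.6, 68.5 and 72.1 CPM in controls and 49.8, 53.6 and 55.5 CPM in deletion libraries (log2 fold change -0.38, edgeR adjusted p = 0.00586, and -0.44 with adjusted p = 0.0492 with sex as a covariate). Of 3 melanocyte genes tested 0 passed in edgeR, DESeq2 or limma voom, and 0 had an unadjusted p under 0.05 in edgeR. Pmel (0.411 ± 0.0884 to 0.674 ± 0.252 CPM) and Mitf (5.10 ± 0.124 to 4.88 ± 0.126 CPM) had the smallest p there (edgeR adjusted p = 0.330 and 0.836).

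Some neuronal genes below the filter had their highest counts in deletion 208. The sensory transcription factor gene Prrxl1 had 10, 1 and 11 counts in controls and 61, 7 and 3 in deletion libraries, and the sodium channel gene Scn10a 8, 0 and 1 counts and 44, 15 and 9. Slc18a3, the vesicular acetylcholine transporter, had 10, 1 and 6 counts and 39, 14 and 0. Vgf, a granule peptide precursor, had 5, 6 and 8 counts and 54, 5 and 40. These genes were not tested, and they were picked out after their values were seen.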
